A study of Homo sapiens with 6 samples.

Results

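Ribosomes are built in the nucleolus, where RNA polymerase I transcribes the precursor of the ribosomal RNAs. Small nucleolar ribonucleoproteins (snoRNPs) of the box C/D and box H/ACA classes guide methylation and pseudouridylation of that precursor, and assembly factors fold and cut it into the small (40S) and large (60S) subunits. Proliferating cancer cells are known for a high rate of this process. The genes described here are 43 nucleolar factors of ribosome assembly, rRNA processing and RNA polymerase I transcription, taken from a list of gene symbols, and each was matched to 1 of the 60483 Ensembl gene IDs in the count files. All 43 passed the filter on low counts and were among the 14965 genes tested, and the lowest count of any member in any library was 262 reads, for UTP15.

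RNA-seq was available from the human bladder cancer line 253J, in 3 FTO-knockdown libraries (transfected with FTO siRNA, replicates 4, 5 and 6) and 3 control libraries (transfected with control siRNA, replicates 1, 2 and 3). Both groups share the cell line, the culture medium and the Trizol extraction of total RNA, and the comparison asks which transcripts change when FTO, an m6A demethylase, is reduced. The labels name siRNA, whereas the study's methods describe shRNA against FTO, and the sources used here do not give the siRNA sequence or state whether the replicates were independent cultures, so a p-value here measures only the spread among these samples, which may be technical. Total counts were 13162731 to 15709975 in the FTO-knockdown libraries and 10991789 to 19891269 in the control libraries. FTO itself was at 20.2, 20.7 and 15.7 CPM (CPM is the read count scaled by the TMM-adjusted library size) in FTO-knockdown replicates 4, 5 and 6, against 31.8, 21.4 and 31.2 CPM in control replicates 1, 2 and 3. This was a log2 fold change of -0.57 (standard error, SE, 0.16, adjusted p = 0.0209 by the edgeR test), which lost its call when control 1 (adjusted p = 0.107) or control 3 (adjusted p = 0.113) was left out. Of 9 urothelial markers, only PPARG reached 10 CPM in any library and UPK1B was at 0 in all 6, whereas all 5 epithelial and all 5 intestinal markers reached 10 CPM. Of 13 fibroblast and mesenchymal markers, 7 reached 10 CPM in both FTO-knockdown replicates 4 and 5, 2 in replicate 6 and 1 in the controls. Summed over the 13 markers, FTO-knockdown replicates 4, 5 and 6 held 1401, 1655 and 47.0 CPM of the library total. The controls held 26.2 to 29.2 CPM. VIM was the largest part in replicates 4 and 5, at 663 and 748 CPM. COL3A1, DCN, LUM, THY1 and FAP were at 0 in every control. In replicates 4 and 5 they stayed between 0.064 CPM (COL3A1 and THY1) and 5.16 CPM (FAP). PDGFRB was at 7.23 and 6.94 CPM there, against 4.39 to 7.46 CPM in the controls. In bulk RNA, fewer cells of a type and less RNA per cell cannot be told apart.

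Many of these genes carry the E-box CACGTG, the core letters bound by MYC and other basic helix-loop-helix factors, close to their start site. RefSeq windows of 250 bases before to 50 after a start (GRCh38.p14) were matched for 36 of the 43 members, and 17 of the 36 (47.2%) held the E-box, whose letters read the same on both strands. The share was 12.4% of the 10889 tested genes with a window and 7.26% of all 35116 windows. By response, 5 of the 10 matched members that rose, 11 of the 25 that did not pass the test and the single member that fell held the E-box. The ETS core CCGGAAG was found on either strand in 11 of 36 members (30.6%), against 21.8% of tested genes, and a match of this motif cannot overlap an E-box. A match is a description of letters and not a binding site. Stretches of 100 bases are shown for NOL6, UTP20 and DDX21, which rose the most among E-box members, for FBL, the member that fell, and for NOP10, a member that did not pass. HEATR1, which rose without an E-box in its window, is shown for contrast. Each is printed 5' to 3' on the gene's strand with the E-box in capitals, which began at position 14 in NOL6, -10 in UTP20, -31 in DDX21, 7 in FBL and -11 in NOP10 (the nearer of its 2), where 1 is the start site that the RefSeq window is built on and negative positions lie before it. These start sites are not the first bases of the GENCODE 29 gene models, and DDX21 has 2 RefSeq windows, of which the downstream window holds the E-box. The stretches are chr9:33473900-33473999 (minus strand), chr12:101280016-101280115 (plus strand), chr10:68956537-68956636 (plus strand), chr19:39846355-39846454 (minus strand), chr15:34343127-34343226 (minus strand) and chr1:236604517-236604616 (minus strand).
NOL6: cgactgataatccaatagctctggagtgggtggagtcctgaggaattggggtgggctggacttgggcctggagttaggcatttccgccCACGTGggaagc
UTP20: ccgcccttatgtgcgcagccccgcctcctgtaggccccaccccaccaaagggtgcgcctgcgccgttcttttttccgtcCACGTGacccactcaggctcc
DDX21: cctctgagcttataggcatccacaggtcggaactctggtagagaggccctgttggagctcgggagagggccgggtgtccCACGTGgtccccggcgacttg
FBL: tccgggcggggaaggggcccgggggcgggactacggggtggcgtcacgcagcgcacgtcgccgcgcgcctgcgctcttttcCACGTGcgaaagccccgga
NOP10: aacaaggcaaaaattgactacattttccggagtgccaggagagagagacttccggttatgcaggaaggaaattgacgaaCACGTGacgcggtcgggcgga
HEATR1: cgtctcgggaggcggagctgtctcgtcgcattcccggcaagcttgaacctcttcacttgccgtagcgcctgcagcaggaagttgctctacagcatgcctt

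Among the nucleolar factors, the RNA polymerase I subunits POLR1A and POLR1B rose after FTO knockdown. Other increases were found in nucleolar proteins and in small and large subunit assembly factors, and the decrease in the box C/D group. Of the 43 members, 13 rose, 1 fell and 29 did not pass the test at an adjusted p of 0.05, by the quasi-likelihood F-test of edgeR with Benjamini-Hochberg adjustment over all genes tested. The members that passed were 32.6%, against 37.4% of all genes tested. By direction, 30.2% of members were higher, against 19.5% of all genes, and 2.3% of members were lower, against 17.9% of all genes. The 13 that rose were NOL6, UTP20, HEATR1, DDX21, TSR1, RRP1B, POLR1B, WDR43, POLR1A, NOLC1, DDX18, UTP15 and NOP2, with log2 fold changes of 0.26 to 0.86, and the 1 that fell was the rRNA methyltransferase FBL. The median log2 fold change was 0.027 over the members and 0.0057 over all genes tested. The groups did not overlap for 15 members that were higher (25.8% of all genes) and 4 that were lower (25.6% of all genes). Leaving out control 1, control 2 or knockdown 4 gave 5, 6 and 8 members higher and 2, 2 and 1 lower. In these fits with fewer samples 18.5%, 19.9% and 21.4% of all genes passed in either direction, against 37.4% with all 6 libraries. The shares of all genes that were higher in these fits are not given.

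**Figure D1:**
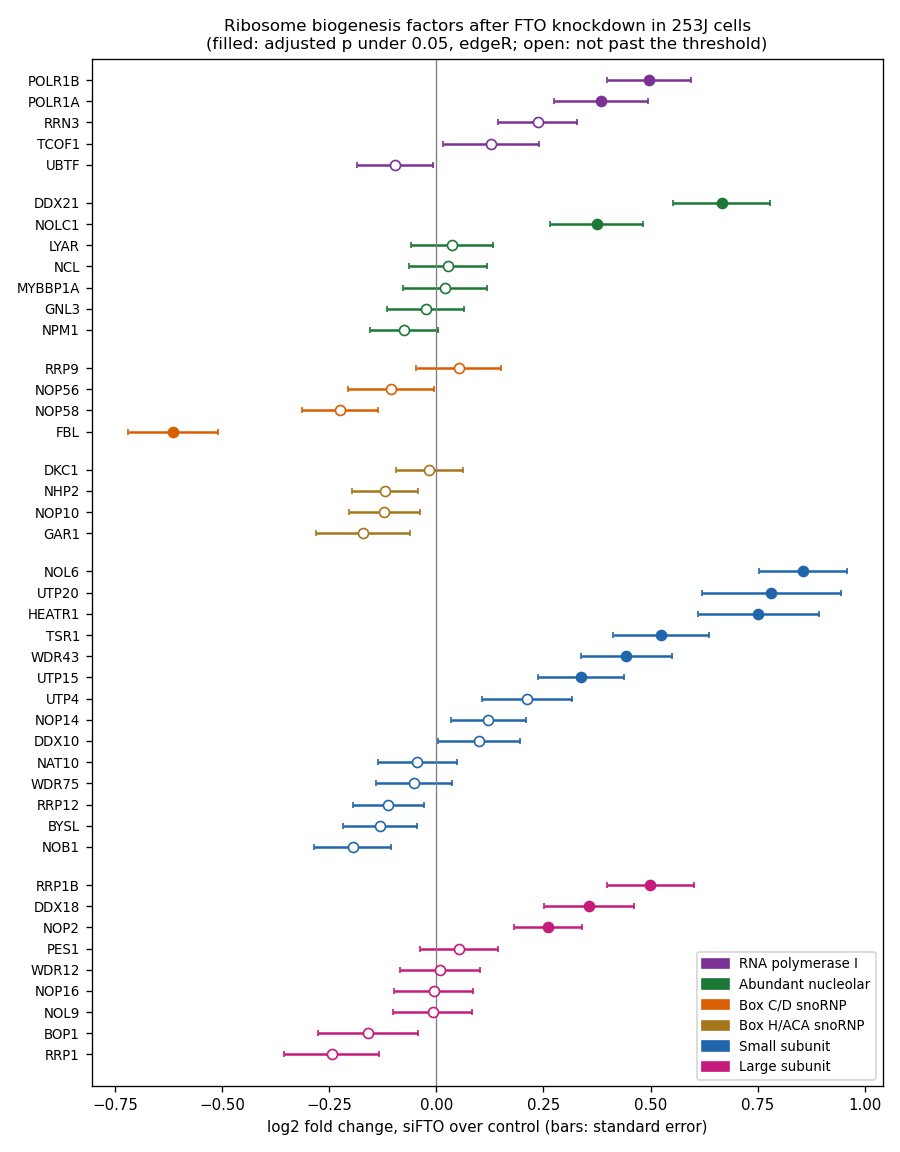
Log2 fold change (siFTO over control, with SE) of the 43 members in 6 role groups, with filled points past an adjusted p of 0.05 in edgeR. NOL6, UTP20 and HEATR1 of the small subunit lie at 0.86, 0.78 and 0.75, the box H/ACA proteins lie between -0.17 and -0.016 (3 of them above 0 with library totals alone), and FBL lies at -0.61.

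The 13 higher members were called from a fit that holds all 3 FTO-knockdown libraries, so their level in each of these libraries is a description and no independent support. Among these 13, replicate 6 had the highest value of the FTO-knockdown libraries in 10, and their median deviation in log2 CPM from the mean of the controls was 0.53, 0.37 and 0.57 in FTO-knockdown replicates 4, 5 and 6. Leaving out FTO-knockdown replicates 4 and 5, the libraries with the high fibroblast marker sums, which sets 1 library against 3 controls and assumes that it varies like them, left 9 of the 13 higher (6.17% of all genes were higher in that fit) and no member fell (5.89% of all genes). NOLC1, NOP2, POLR1A and UTP15 did not pass in it (adjusted p of 0.0753, 0.1, 0.109 and 0.186 in edgeR), nor did FBL (log2 fold change -0.49, adjusted p = 0.0771). Among the controls, replicate 3 had the highest value in all 13 and replicate 2 the lowest in 11, with median deviations of 0.0016, -0.15 and 0.16 in control replicates 1, 2 and 3. The 29 members that did not pass had medians of -0.025, -0.069 and -0.018 in FTO-knockdown replicates 4, 5 and 6, against -0.074, 0.0087 and 0.067 in control replicates 1, 2 and 3.

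**Figure D2:**
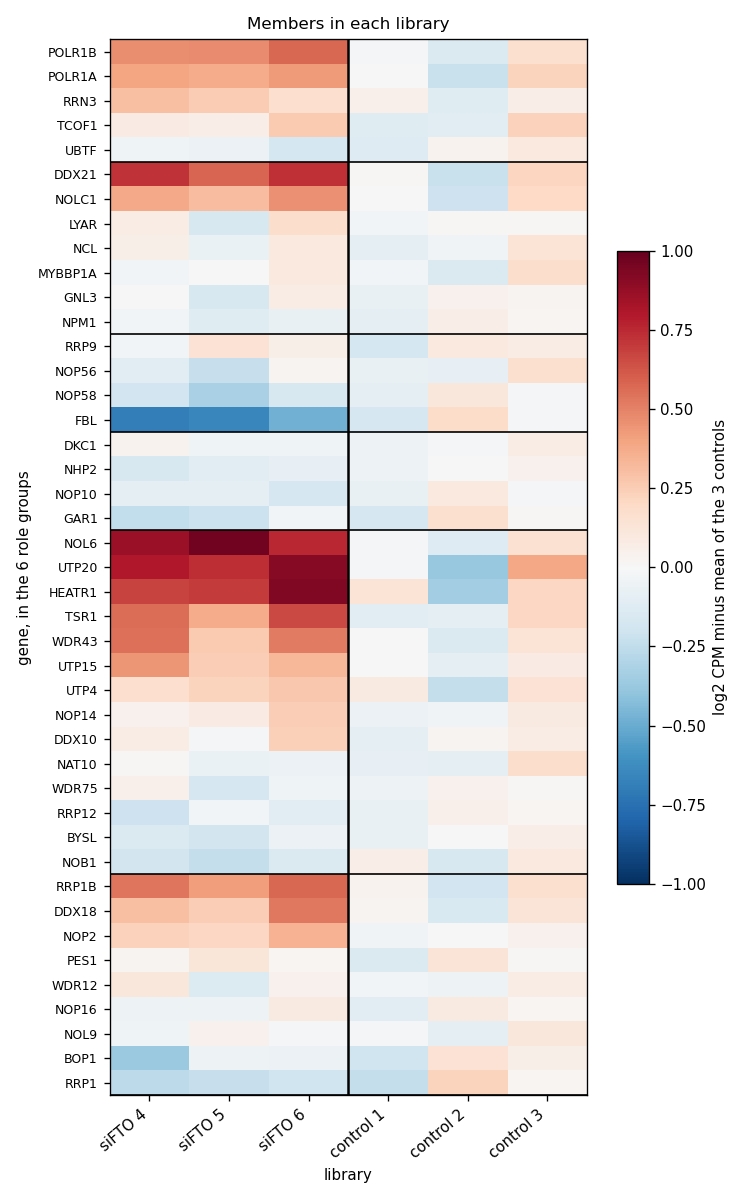
Log2 CPM of each member minus its control mean, drawn for every library, with lines between the role groups in the order RNA polymerase I, abundant nucleolar, box C/D, box H/ACA, small subunit and large subunit. The 13 members that rose were called from these libraries and are red in each FTO-knockdown library, and control replicate 3 is above control replicate 2 in each of them.

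RNA polymerase I transcription. POLR1A and POLR1B, the 2 largest subunits of the polymerase, rose, while RRN3, TCOF1 and UBTF gave smaller differences. Among 11 further subunits and partners, 4 were lower (36.4%, against 17.9% of all genes tested) and 1 higher (9.1%, against 19.5%). POLR1B, the second largest subunit, stood at 66.1, 66.4 and 71.1 CPM in FTO-knockdown replicates 4, 5 and 6, against 47.5, 43.3 and 53.4 CPM in control replicates 1, 2 and 3. Its log2 fold change was 0.50 (SE 0.10, adjusted p = 0.00432 in edgeR), and it passed without any 1 library. The largest subunit, POLR1A, stood at 100.2, 98.2 and 102.1 CPM in the knockdown, against 76.1, 65.0 and 88.9 CPM in the controls, with a log2 fold change of 0.38 (SE 0.11, adjusted p = 0.0208). No FTO-knockdown library of either subunit reached down to the controls. POLR1A lost its call when control 1, control 2 or knockdown 4 was left out (adjusted p of 0.106, 0.0747 and 0.0651 in edgeR). RRN3 (TIF-IA), which makes the polymerase competent to start, stood at 61.3, 59.3 and 55.9 CPM, against 51.7, 45.9 and 52.2 CPM in the controls. Its groups did not overlap although it missed the threshold (log2 fold change 0.24, adjusted p = 0.065 in edgeR). The 2 pseudogenes that may share its reads together had a mean of 143.0 counts per library, against 806.7 for RRN3. TCOF1 (treacle), a nucleolar scaffold of the polymerase, stood at 219.7, 216.6 and 248.3 CPM, against 190.4, 192.2 and 243.6 CPM (0.13, adjusted p = 0.39). UBTF, which binds and opens ribosomal DNA, stood at 159.9, 158.3 and 146.4 CPM, against 150.6, 169.2 and 176.6 CPM in the controls (-0.096, adjusted p = 0.414), and the groups of these last genes overlapped. The log2 ratio of POLR1B over POLR1A within a library was -0.60, -0.57 and -0.52 in FTO-knockdown replicates 4, 5 and 6, against -0.68, -0.59 and -0.74 in the controls (exact permutation test, two-sided, p = 0.2, adjusted p = 0.3 over 3 ratios, where 3 against 3 cannot go below 0.1).

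Abundant nucleolar proteins. NPM1 and nucleolin, the most abundant members by CPM, did not pass the test, and the helicase DDX21 and the snoRNP chaperone NOLC1 rose. DDX21, an RNA helicase that acts in rRNA transcription and processing, stood at 302.2, 274.7 and 304.0 CPM in FTO-knockdown replicates 4, 5 and 6, against 184.8, 157.3 and 212.9 CPM in control replicates 1, 2 and 3. This was a log2 fold change of 0.67 (SE 0.11, adjusted p = 0.00216 in edgeR) with no overlap of the groups, and it passed without any 1 library (adjusted p of 0.00047 to 0.0334). NOLC1 (Nopp140) stood at 294.9, 281.7 and 311.8 CPM, against 227.2, 197.0 and 261.1 CPM in the controls, also with no overlap (0.37, SE 0.11, adjusted p = 0.0213), but it lost its call when control 1, control 2 or knockdown 4 was left out (adjusted p of 0.102, 0.0729 and 0.0683). NPM1, the histone chaperone that forms the outer layer of the nucleolus, stood at 1766, 1650 and 1707 CPM in the knockdown, against 1693, 1879 and 1823 CPM (-0.075, SE 0.079, adjusted p = 0.478). The annotation holds 45 pseudogenes that may share its reads, which together had a mean of 655.5 counts per library, against 26075.7 for NPM1. Nucleolin (NCL), which binds the rRNA precursor, stood at 1618, 1481 and 1663 CPM, against 1449, 1515 and 1707 CPM (0.027, SE 0.090, adjusted p = 0.83). The transcription cofactor LYAR stood at 119.6, 101.5 and 128.2 CPM, against 111.6, 114.2 and 114.7 CPM (0.036, adjusted p = 0.789). GNL3 (nucleostemin), a GTPase of 60S assembly, had a log2 fold change of -0.025 and MYBBP1A, which binds MYB and p53, of 0.020. Neither passed (adjusted p of 0.843 and 0.888 in edgeR).

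Box C/D snoRNP proteins. FBL, the enzyme of box C/D snoRNPs that methylates ribose in rRNA, was the only member of all 43 that fell. It stood at 488.8, 502.1 and 566.3 CPM in FTO-knockdown replicates 4, 5 and 6, against 705.2, 899.4 and 779.1 CPM in control replicates 1, 2 and 3. Each FTO-knockdown library lay below each control, and the log2 fold change was -0.61 (SE 0.11, adjusted p = 0.00231 in edgeR), 0.653 times the control level, and it passed without any 1 library (-0.70 to -0.52). Its partners in the particle differed less. NOP58, a core scaffold, stood at 154.3, 140.5 and 158.0 CPM, against 165.5, 190.3 and 173.4 CPM (-0.23, SE 0.089, adjusted p = 0.0681), so its groups did not overlap, and it passed as lower without FTO-knockdown replicate 6 (adjusted p = 0.0428). NOP56, the other scaffold, stood at 325.9, 301.7 and 359.2 CPM, against 334.7, 333.8 and 393.6 CPM (-0.11, adjusted p = 0.424). RRP9, the protein specific to the U3 particle, stood at 64.4, 72.6 and 68.6 CPM, against 58.3, 70.5 and 69.2 CPM (0.053, adjusted p = 0.701). The log2 ratio of NOP58 over NOP56 was -1.08, -1.10 and -1.19 in the knockdown, against -1.02, -0.81 and -1.18 in the controls (exact permutation test, two-sided, p = 0.4, adjusted p = 0.4 over the 3 ratios).

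Box H/ACA snoRNP proteins. None of the 4 proteins of the pseudouridylation particle passed the test, and each had a log2 fold change below 0 (-0.17 to -0.016), although DKC1, NHP2 and NOP10 were above 0 (0.10, 0.0012 and 0.00088) when only library totals were used for scaling, which moved the median of all genes to 0.126. NHP2, a core RNA-binding protein, stood at 109.4, 113.0 and 115.8 CPM in FTO-knockdown replicates 4, 5 and 6, against 118.3, 122.7 and 126.2 CPM in control replicates 1, 2 and 3 (-0.12, SE 0.077, adjusted p = 0.24). NOP10, which bridges the particle's proteins, stood at 189.8, 190.7 and 180.4 CPM, against 193.0, 216.9 and 200.2 CPM (-0.12, SE 0.083, adjusted p = 0.267). The groups of these genes did not overlap, so a small fall cannot be told from none at this spread. GAR1, which helps release the modified RNA, stood at 38.0, 38.9 and 44.2 CPM, against 40.1, 50.5 and 45.4 CPM (-0.17, adjusted p = 0.241). DKC1 (dyskerin), the pseudouridine synthase itself, had a mean of 142.2 ± 4.25 CPM in the knockdown and 143.8 ± 6.37 CPM in the controls (SD, n = 3 each), a log2 fold change of -0.016 (adjusted p = 0.885 in edgeR). NHP2 shares 27.4% of its exonic bases with RMND5B on the opposite strand, which had a mean of 736.83 counts per library, against 1749.7 for NHP2. The log2 fold changes of NHP2 and NOP10 were above 0 (0.17 each) after a correction for length and GC content.

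Small subunit assembly. This group held the 3 largest increases among the members, with 6 of 14 members higher (42.9%, against 19.5% of all genes tested) and none lower (against 17.9%). NOL6, a component of the small subunit processome that joins the UTP-C complex, stood at 76.7, 82.4 and 71.1 CPM in FTO-knockdown replicates 4, 5 and 6, against 41.6, 38.6 and 46.9 CPM in control replicates 1, 2 and 3. The libraries did not overlap, and the log2 fold change was 0.86 (1.81-fold, SE 0.10, adjusted p = 0.000618 in edgeR), with 0.79 to 0.94 when any 1 library was left out. UTP20, a large helical-repeat protein of the 5' domain, stood at 56.7, 54.3 and 61.1 CPM, against 32.2, 25.0 and 42.5 CPM (0.78, SE 0.16, adjusted p = 0.00509), and lost its call when control 1 was left out (adjusted p = 0.0586). HEATR1 (UTP10), which couples polymerase I transcription to processing, stood at 66.8, 68.0 and 79.5 CPM, against 46.1, 33.0 and 48.3 CPM (0.75, SE 0.14, adjusted p = 0.00334), and passed without any 1 library. All 3 were higher in every FTO-knockdown library than in any control. HEATR1 overlaps LGALS8 on the opposite strand over 23.2% of its exonic bases, and without a stated strand setting those reads cannot be told apart. LGALS8 had a mean of 1157.0 counts per library, against 841.5 for HEATR1. TSR1, a GTPase-like factor of the late 40S precursor, stood at 96.4, 84.9 and 103.5 CPM, against 60.9, 61.2 and 75.6 CPM (0.52, SE 0.11, adjusted p = 0.00577). It lost its call when control 1 or control 2 was left out (adjusted p of 0.0621 and 0.0533 in edgeR). TSR1 shares 20.7% of its exonic bases with SRR on the opposite strand, which had a mean of 90.17 counts per library, against 1196.8 for TSR1.

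WDR43, HEATR1, UTP15, UTP4 and WDR75 belong to the UTP-A subcomplex, which binds the 5' end of the rRNA precursor and is needed for its transcription. Of these 5, 3 rose (19.5% of all genes tested were higher), and only HEATR1 of the 3 passed without any 1 library. WDR43 stood at 112.5, 91.9 and 109.7 CPM in FTO-knockdown replicates 4, 5 and 6, against 77.0, 69.4 and 84.3 CPM in the controls (log2 fold change 0.44, SE 0.11, adjusted p = 0.00943 in edgeR), and lost its call when control 1 or control 2 was left out (adjusted p of 0.0695 and 0.0651). UTP15 stood at 33.0, 28.8 and 30.5 CPM, against 24.4, 22.8 and 25.8 CPM (0.34, SE 0.10, adjusted p = 0.0238), and lost its call when control 1, control 2 or knockdown 4 was left out (adjusted p of 0.0729, 0.0653 and 0.112). UTP4 stood at 112.4, 116.5 and 120.7 CPM, against 106.2, 84.9 and 110.8 CPM, which did not overlap but missed the threshold (0.21, SE 0.10, adjusted p = 0.135). WDR75 had a log2 fold change of -0.052 (SE 0.089, adjusted p = 0.668). The values of WDR43, UTP15 and WDR75 are given so that each of the 5 listed members of the subcomplex is shown. The choice was made after they were seen, and the subcomplex may hold genes outside the list.

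The other factors of the 40S pathway did not pass. NOB1, the endonuclease that makes the mature 3' end of 18S rRNA, stood at 95.9, 92.1 and 98.5 CPM in the knockdown, against 113.9, 97.7 and 116.3 CPM in the controls (log2 fold change -0.19, adjusted p = 0.11 in edgeR), and passed as lower without control replicate 2 (adjusted p = 0.0421). NOB1 shares 20.2% of its exonic bases with AC092115.3 on the opposite strand, which had a mean of 4.33 counts per library, against 1520.3 for NOB1. Its neighbour in the late precursor, BYSL (bystin), stood at 52.8, 51.6 and 56.1 CPM, against 55.6, 58.8 and 61.2 CPM (-0.13, adjusted p = 0.255). Both groups of values lay close together and overlapped. The remaining 4 members were NOP14 at 0.12, the helicase DDX10 at 0.10, the rRNA acetyltransferase NAT10 at -0.045 and RRP12, an export factor in yeast, at -0.11 on the log2 scale, with adjusted p of 0.295, 0.433, 0.726 and 0.308.

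**Figure D3:**
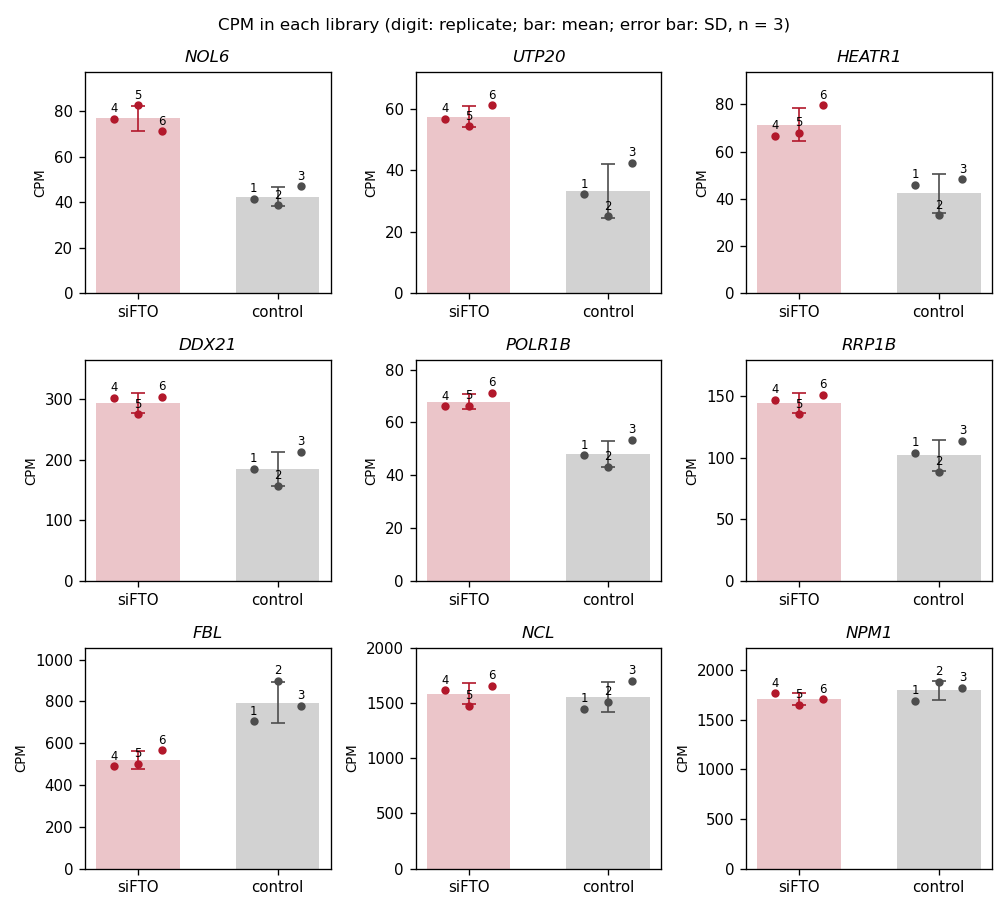
CPM on TMM-scaled library sizes in each FTO-knockdown (siFTO) and control library for 6 members that rose, for FBL and for the abundant proteins NCL and NPM1, with bars at the mean, error bars of 1 SD (n = 3) and digits for the replicate. NOL6 lies at 71.1 to 82.4 CPM in the knockdown and 38.6 to 46.9 CPM in the controls, while NCL overlaps between the groups.

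Large subunit assembly. RRP1B, DDX18 and NOP2 rose among 9 members (33.3%, against 19.5% of all genes tested), and no protein of the PeBoW complex passed. RRP1B, a paralog of RRP1 that binds pre-60S particles and chromatin, stood at 146.8, 135.2 and 150.8 CPM in FTO-knockdown replicates 4, 5 and 6, against 103.7, 88.7 and 113.6 CPM in control replicates 1, 2 and 3 (log2 fold change 0.50, SE 0.10, adjusted p = 0.00474 in edgeR), and passed without any 1 library. RRP1 itself stood at 85.7, 87.7 and 89.9 CPM, against 87.3, 120.1 and 104.1 CPM, with overlap (-0.24, SE 0.11, adjusted p = 0.105), and passed as lower without control replicate 1 (adjusted p = 0.0492). The log2 ratio of RRP1B over RRP1 within a library was 0.78, 0.63 and 0.75 in FTO-knockdown replicates 4, 5 and 6, against 0.25, -0.44 and 0.13 in control replicates 1, 2 and 3. The difference between the groups was 0.74 on the log2 scale, higher in 3 of 3 knockdown libraries than in any control, at the smallest p this design allows (exact permutation test, two-sided, p = 0.1, adjusted p = 0.3 over the 3 ratios). DDX18, a helicase of ribosome assembly, stood at 117.2, 113.0 and 137.4 CPM, against 96.9, 85.8 and 104.2 CPM (0.36, SE 0.10, adjusted p = 0.0225). NOP2, which methylates a cytosine of 28S rRNA, stood at 145.6, 143.1 and 158.0 CPM, against 121.3, 123.6 and 127.6 CPM (0.26, SE 0.080, adjusted p = 0.0267). NOP2 shares 54.4% of its exonic bases with AC006064.6 on the same strand, so its counts are uncertain. The groups of DDX18 and NOP2 did not overlap, but each passed in only 1 of the 6 fits that left out a library, the fit without FTO-knockdown replicate 5. With control 1, 2 or 3 or knockdown 4 or 6 left out, adjusted p in edgeR was 0.101, 0.101, 0.0508, 0.0552 and 0.0636 for DDX18 and 0.108, 0.0622, 0.0632, 0.0817 and 0.0949 for NOP2.

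PES1, BOP1 and WDR12 form the PeBoW complex, which is needed to process the precursor of 28S rRNA. BOP1 stood at 185.0, 230.1 and 229.8 CPM in FTO-knockdown replicates 4, 5 and 6, against 207.8, 263.8 and 248.7 CPM in control replicates 1, 2 and 3 (log2 fold change -0.16, adjusted p = 0.303 in edgeR). PES1 stood at 227.2, 241.4 and 225.7 CPM, against 201.7, 243.2 and 224.5 CPM (0.052, adjusted p = 0.676). WDR12 was at 68.8 ± 6.08 CPM in the knockdown and 68.3 ± 3.13 CPM in the controls (SD, n = 3 each; 0.0092, adjusted p = 0.947). The spread within each group exceeded these differences. NOP16, a 60S assembly factor, and NOL9, a polynucleotide kinase of rRNA processing, had log2 fold changes of -0.0059 and -0.0082 (adjusted p of 0.967 and 0.952).

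Levels of different genes were compared per kilobase of exonic length, from GENCODE 29. That length merges the exons of all transcripts of a gene, and the length of the transcripts present was not measured. The order of genes depends on it, at 0.554 kb for NOP10, 2.17 kb for FBL, 3.83 kb for NPM1 and 6.93 kb for NCL. NPM1 was the highest member at 446.1 ± 15.2 CPM per kb in the knockdown and 469.8 ± 25.0 in the controls (SD, n = 3 each). NOP10 followed at 337.5 ± 10.3 in the knockdown and 367.1 ± 22.2 in the controls, and its control values overlapped those of FBL (238.9 ± 19.1 in the knockdown and 365.7 ± 45.1 in the controls). NCL was the next at 229.0 ± 13.7 in the knockdown and 224.7 ± 19.3 in the controls. The lowest in the controls were UTP20, at 5.73 ± 0.341 and 3.32 ± 0.877, UTP15, at 4.87 ± 0.328 and 3.85 ± 0.233, and HEATR1, at 7.89 ± 0.778 and 4.69 ± 0.914 CPM per kb in the knockdown and the controls. In the knockdown UTP15 and UTP20 were again the lowest, and HEATR1 ranked 37 of 43. In the controls 41 of 43 members lay above the median of all tested genes, 4.36 CPM per kb. NPM1, NCL and FBL together held 3873, 3632 and 3936 CPM of the 8802, 8439 and 9104 CPM of all members in FTO-knockdown replicates 4, 5 and 6, against 3847, 4294 and 4309 of 8241, 8778 and 9232 CPM in control replicates 1, 2 and 3.

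The members that rose had a longer median exonic length, counted over the merged exons of all transcripts of a gene. Their exonic length was 3.97 to 13.5 kb (median 5.91 kb). In the 29 members that did not pass it was 0.554 to 11.4 kb (median 4.20 kb), so the ranges overlapped. FBL was at 2.17 kb, and the median over all genes tested was 4.57 kb. Across the 43 members the log2 fold change went along with log2 length (r = 0.47, rho = 0.52) and with GC content of the longest transcript (r = -0.31, rho = -0.30). The same held across 14887 tested genes with a length (r = 0.26, rho = 0.33 with length and r = -0.18, rho = -0.26 with GC content). These values describe genes that share the same 6 libraries and are not independent replicates. After a correction for length and GC content within each library, 11 members were higher (16.4% of all genes) and 3 were lower (18.2% of all genes). Of the 13, 10 still rose, while POLR1A, UTP15 and DDX18 had log2 fold changes of 0.16, 0.15 and 0.13 (adjusted p of 0.205, 0.181 and 0.271 in edgeR). NOL6 kept 0.87, UTP20 was at 0.53 and HEATR1 at 0.51, and FBL still fell (-0.44, adjusted p = 0.00595). RRP9 rose (0.39, adjusted p = 0.00555), and NOP58 and WDR12 fell (-0.27 and -0.25, adjusted p of 0.0286 and 0.0343). The part of exonic length in the result was not tested further.

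**Figure D4:**
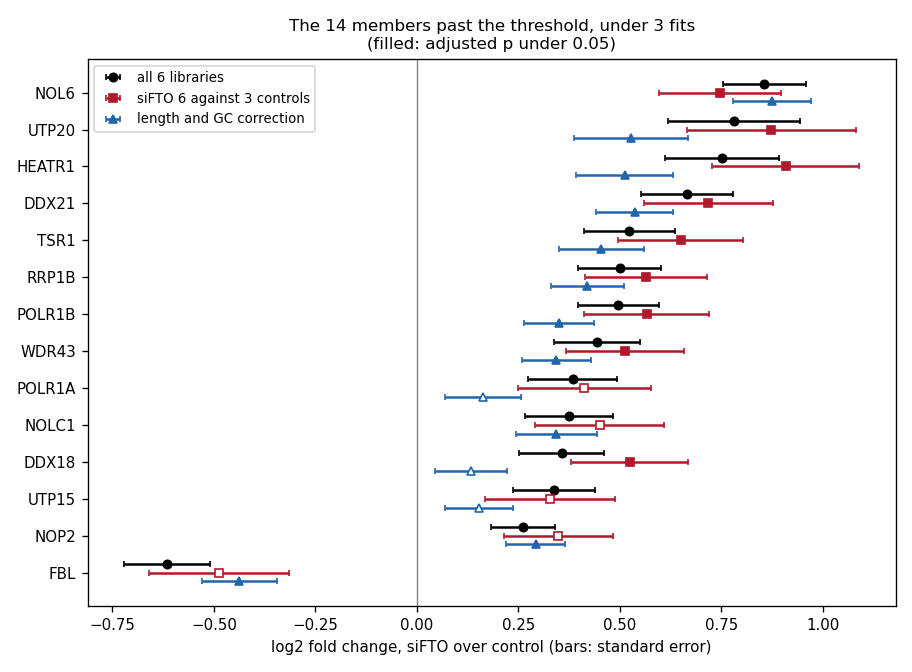
Log2 fold change with SE of the 14 members past the threshold, from all 6 libraries (circles), from FTO-knockdown replicate 6 against the 3 controls (squares) and after a correction for length and GC content (triangles), with filled symbols at an adjusted p under 0.05. NOL6 lies at 0.86, 0.75 and 0.87 in these fits, and FBL at -0.61, -0.49 and -0.44.

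Other genes of ribosome biogenesis, 122 in all, gave 26 higher (21.3%, against 19.5% of all genes tested), 17 lower (13.9%, against 17.9%) and 79 that did not pass, so both shares lay near those of all genes. Among 35 other small subunit factors 12 were higher (34.3%) and 1 lower (2.9%; median log2 fold change 0.18). DHX37, the helicase that releases U3, was at 0.62 and WDR36 at 0.53, while TBL3 (UTP13) was at -0.52 (adjusted p of 0.00219, 0.01 and 0.00514 in edgeR). Among 43 other large subunit factors 7 were higher and 7 lower (16.3% each), with the nucleolar GTPase GNL3L at 1.01 and TEX10 at 0.48, against NOP53 at -1.03 and RSL24D1 at -1.02. The list of 11 late maturation factors had 4 higher (36.4%) and none lower, with PNO1 at 0.56 and the 60S export GTPase LSG1 at 0.52. In the RNA exosome, which trims rRNA precursors, 4 of 14 were lower (28.6%) and 1 higher (7.1%), with EXOSC5 at -0.80, EXOSC8 at -0.76 and the nuclease DIS3 at 0.31. Among 11 further subunits and partners of polymerase I, 4 were lower (36.4%) and 1 higher (9.1%), with POLR1H at -0.85, POLR1D, which polymerase III also uses, at -0.46 and POLR1F at 0.50. The 8 snoRNP assembly factors gave 1 higher (SHQ1, 0.44) and 1 lower (RUVBL2, -0.40). When control 1, control 2 or knockdown 4 was left out, 11, 14 and 12 of the 122 were higher and 13, 14 and 12 were lower. In those fits 18.5%, 19.9% and 21.4% of all genes passed in either direction.

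**Figure D5:**
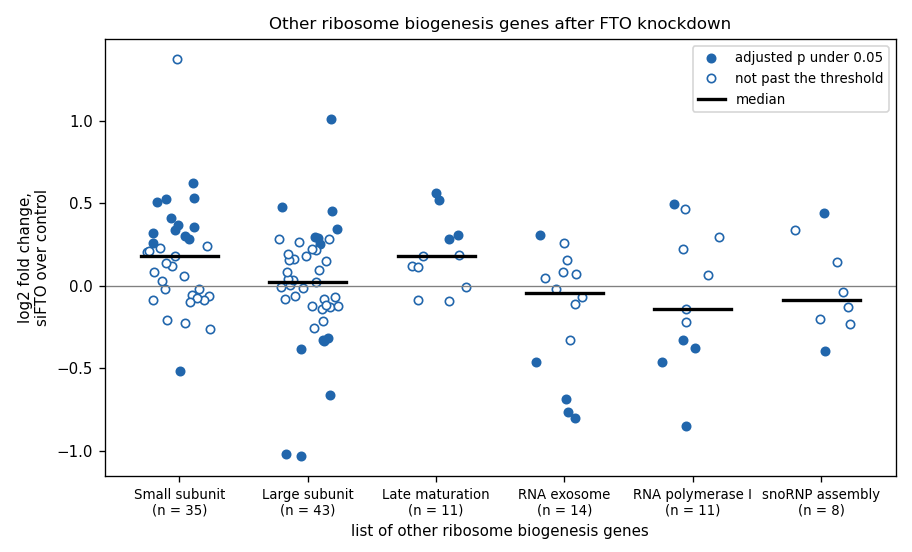
Log2 fold change (siFTO over control) of 122 other ribosome biogenesis genes in 6 lists, with filled points past an adjusted p of 0.05 in edgeR and a line at the median of each list. The small subunit list has 12 genes higher and 1 lower, and the exosome list has 4 lower and 1 higher.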

How the data were processed

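Counts of reads per gene were deposited by the authors as 1 file per sample, without normalization, and the processing notes of the submitters list TopHat2 (2.0.11), HTSeq, and hg19 and GRCh37 as builds. For HTSeq, its version, the annotation and the strandedness were not given in the sources used here. A gene ID table supplied symbols (93.1% of IDs matched), and GENCODE 29 on GRCh38 supplied lengths and GC content, both matched by ID without version.

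Samples were grouped by their titles. Low-count genes were dropped with filterByExpr of edgeR 4.0.16 (R 4.3.3; count of at least 10, total of at least 15), libraries were TMM-scaled, and the quasi-likelihood F-test was run with group as its sole term. Tests were two-sided, adjusted by Benjamini-Hochberg over all genes tested, with a threshold of 0.05. A standard error is the size of the log2 fold change divided by the square root of F. The test was checked on simulated data. The lowest count of a member was 262 reads (UTP15), and counting error was not separated from other spread between libraries.

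Members, lists and alternatives were chosen with earlier results of these data known. All members were named. Values per library were given for up to 4 members past the threshold and up to 3 others per role group, and for up to 2 genes in each direction of the other lists. Alternatives were other scalings, filters, a stricter threshold of 0.01, DESeq2 1.42.0, limma 3.58.1 voom, leaving out libraries, and spline offsets for length and GC content.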

Additional observations from a re-analysis of the deposited data

How the results depend on the processing

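No paired analysis was possible because the groups share no replicate number. DESeq2-type and upper-quartile factors, TMM without ribosomal protein genes, 10 counts in every library and limma voom each gave 13 members higher and 1 lower, the same genes. Of all genes, 35.4% to 40.1% passed in either direction in these fits. No filter gave 12 higher and 1 lower, without NOP2, and DESeq2 the same counts, without UTP15 (19.6% and 28.1% of all genes past in either direction). Library totals alone gave 15 higher and 1 lower, with RRN3 and UTP4 added, where 39.3% of all genes passed in either direction. This scaling moved the median of all genes to 0.126 and that of the members to 0.15. With 1 library left out, the members higher ranged from 5 to 13, the members lower from 1 to 2, the members' median from -0.026 to 0.056, and the other ribosome biogenesis genes from 11 to 21 higher and from 12 to 17 lower. Without FTO-knockdown replicates 4 and 5 they were 9 and 0 members (median 0.091) and 8 and 7 other genes. At an adjusted p of 0.01 there were 8 members higher, and 9 higher and 10 lower of the other genes, which were 44 and 11 with library totals. The length and GC correction gave 11 and 3 members (median 0.087). FTO had a log2 fold change of -0.46 with library totals (adjusted p = 0.0576 from edgeR) and -0.74 to -0.47 with 1 library left out. The cause of these shifts was not tested. No member past the threshold changed sign in any alternative. Members that did not pass changed sign in 48 of the 688 log2 fold changes that the alternatives gave for all members. With library totals alone, 12 turned, UBTF 0.025, NPM1 0.047, GNL3 0.097, NOP56 0.013, DKC1 0.10, NHP2 0.0012, NOP10 0.00088, WDR75 0.070, NAT10 0.075, RRP12 0.0091, NOP16 0.12, NOL9 0.11. After the length and GC correction, 9 turned, TCOF1 -0.012, NCL -0.12, NHP2 0.17, NOP10 0.17, DDX10 -0.15, BYSL 0.082, BOP1 0.038, WDR12 -0.25, NOP16 0.10. Without FTO-knockdown replicates 4 and 5, 3 turned, GNL3 0.073, NOP56 0.022, NOP16 0.091. With upper-quartile factors, 2 turned, MYBBP1A -0.0050, WDR12 -0.015. With 1 library left out, the ranges that crossed 0 were NCL -0.032 to 0.099, GNL3 -0.089 to 0.042, LYAR -0.051 to 0.13, MYBBP1A -0.052 to 0.11, RRP9 -0.038 to 0.10, DKC1 -0.052 to 0.021, WDR75 -0.11 to 0.0073, NAT10 -0.095 to 0.048, PES1 -0.026 to 0.12, WDR12 -0.049 to 0.081, NOP16 -0.069 to 0.038, NOL9 -0.056 to 0.054.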
